A study of Mus musculus with 20 samples.

Results

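The genes described here encode the protein subunits of the mitochondrial respiratory chain and of ATP synthase. They were taken by gene symbol: Nduf subunits of complex I, the Sdh genes of complex II, the Uqcr genes of complex III, Cox4 to Cox8 of complex IV, Atp5 of ATP synthase (complex V), and the subunit genes of mitochondrial DNA, whose symbols start with mt-. The pattern matched 105 symbols. After removal of 7 pseudogenes and of 1 gene identifier found in neither table, 97 of the 51912 genes in the 24 h table were left, of which 84 are nuclear and 13 mitochondrial. Complex I has 36 nuclear and 7 mitochondrial members, complex II 4 nuclear members and complex III 8 nuclear members and 1 mitochondrial member. Complex IV has 19 and 3, and complex V has 17 and 2. The symbol rule puts Ndufa4 under complex I, although it is now regarded as a subunit of complex IV, and it includes Cox7a2l, a factor of supercomplex assembly, and Atp5s, which is not a structural subunit.

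Slices of forebrain, cut from mouse pups at postnatal day 4 and kept in culture, received 5% horse serum. Total RNA taken 4 h or 24 h later was made into Smart-Seq v4 libraries, which were sequenced. The genotype concerns Tnfaip6, which encodes the hyaluronan-binding secreted protein TSG-6. The 4 h set has 3 libraries from wild-type (WT) slices and 3 labelled knockout (KO). In the 24 h set each sex has 4 libraries labelled KO and 3 heterozygous (Het) ones, so the control genotype differs between the times. Titles and genotype fields give Het at 24 h and were followed, although a treatment note names WT. All slices had serum, and slices without it were not analysed here. The labels do not state whether replicate libraries are from different pups; the p-values therefore cover only library-to-library spread, which may be technical in part.

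Library totals were 11411532 to 15030171 reads at 4 h and 8482933 to 18051300 at 24 h. Tnfaip6 was not lost from the libraries labelled KO, which held 37 to 83 reads at 4 h and 54 to 108 at 24 h, against 76 to 94 in WT and 45 to 69 in Het. Every genotype is therefore given as labelled. All 10 neuronal and all 10 astrocyte markers read were present in every group. The library labelled KO female 2 had 826 reads of the Y-linked gene Ddx3y and 0 of Xist, which goes against its label. In the 4 h table, whose labels give no sex, only WT 1 and KO 1 had more than a few Xist reads, so each group held 1 such library. Reads of Ttr, the transthyretin gene of the choroid plexus, were 19661 in KO female 1, 48186 in KO female 3 and 4922 in KO male 3, and 0 to 8 elsewhere. Het male 1 had 107 Xist reads beside 656 of Ddx3y.

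Complexes I, III and IV pump protons across the inner mitochondrial membrane as electrons pass from NADH to oxygen, complex II feeds electrons in from succinate, and ATP synthase uses the proton gradient to make ATP. All complexes except II are mosaics of 2 genomes. Mitochondrial DNA is transcribed from both strands as long precursor RNAs that are cut at the tRNAs between the genes, so the mRNAs of a strand share their start, while each nuclear subunit has its own promoter. Neurons depend heavily on this pathway for the cost of ion pumping and synaptic transmission.

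Stretches of mitochondrial DNA have been copied into the nuclear genome, and a read that is the same in a gene and its copy cannot be told apart by sequence. The annotation of GRCm38 holds 7 unprocessed pseudogenes in a row on the minus strand of chromosome 1, from position 24611535 to 24616197, that copy the genome from mt-Co1 to mt-Nd4, and 3 on chromosome 2 that copy mt-Co1, mt-Co2 and mt-Nd2. The copies of mt-Co2 (Gm28661, 681 aligned bases), mt-Atp6 (Gm10925, 678), mt-Co3 (Gm28437, 783), mt-Nd3 (Gm28438, 342), mt-Nd4l (Gm10222, 294) and mt-Nd4 (Gm28439, 876 of 1378 bases) had 0 mismatches. The copy of mt-Co1 on chromosome 1 (Gm29216) covered positions 1063 to 1545 with 1 mismatch, whereas the copy on chromosome 2 (Gm13340) covered all 1545 bases with 37 mismatches, an identity of 97.6%. Alignments were local, so bases outside the aligned part do not enter the mismatch counts. The aligned part was 483 of the 492 bases of Gm29216 and 342 of the 345 of Gm28438. Of all stretches of 50 bases in mt-Co1, 28.7% also occur in Gm29216 and 27.5% in Gm13340. The following stretches are shown because they hold positions that tell the copies from the gene, with identical sequence between them. Sequences run 5′ to 3′ along the gene, and capitals mark the positions at which any of the 3 differ.
mt-Co1, chrM:6390-6469, plus strand: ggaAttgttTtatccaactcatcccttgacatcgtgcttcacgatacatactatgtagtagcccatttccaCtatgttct
Gm29216, chr1:24616109-24616188, minus strand: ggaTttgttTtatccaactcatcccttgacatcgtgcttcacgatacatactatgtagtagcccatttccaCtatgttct
Gm13340, chr2:22588506-22588585, minus strand: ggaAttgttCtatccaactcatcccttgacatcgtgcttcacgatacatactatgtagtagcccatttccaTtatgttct
Counted from the first base of mt-Co1, the chromosome 1 copy carries A1066T and the chromosome 2 copy T1072C and C1134T in this stretch. In mt-Co2 the chromosome 1 copy is identical along the stretch shown.
mt-Co2, chrM:7017-7096, plus strand: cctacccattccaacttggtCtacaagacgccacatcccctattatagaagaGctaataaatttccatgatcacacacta
Gm28661, chr1:24615482-24615561, minus strand: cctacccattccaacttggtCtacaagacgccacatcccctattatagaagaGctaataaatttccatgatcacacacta
Gm13341, chr2:22587879-22587958, minus strand: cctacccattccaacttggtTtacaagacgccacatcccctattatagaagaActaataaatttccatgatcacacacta
Counted from the first base of mt-Co2, the chromosome 2 copy carries C25T and G57A here.

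The 5 mitochondrial members that share over 90% of their sequence with another gene had the lowest levels of that genome, mt-Atp8 apart. Of all stretches of 50 bases in a gene, the share also found in another annotated gene was 100% for mt-Co2, 99.9% for mt-Co3, 99.5% for mt-Atp6, 98.8% for mt-Nd4l and 98.0% for mt-Nd3. It was 62.2% for mt-Nd4, 51.1% for mt-Co1, 8.19% for mt-Nd2 and 7.61% for mt-Nd5, and 0% for mt-Cytb, mt-Nd1, mt-Nd6 and mt-Atp8. On a scale of reads per exon length and library total (RPKM, here from all annotated exons), the median 24 h level of mt-Co1, the catalytic core of complex IV, was 2173.0, that of mt-Cytb, the cytochrome b of complex III, 1332.9 and that of mt-Nd1 890.3. The other complex IV subunits made from the same strand were far lower, mt-Co3 at 59.9 and mt-Co2 at 19.6, and the ATP synthase subunit mt-Atp6 was at 4.7. The shared complex I subunits mt-Nd3 and mt-Nd4l stood at 1.2 each. Between them lay mt-Nd2 at 457.7, mt-Nd5 at 443.7, mt-Nd4 at 398.9 and mt-Nd6, the only member on the other strand, at 349.1.

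**Figure D1:**
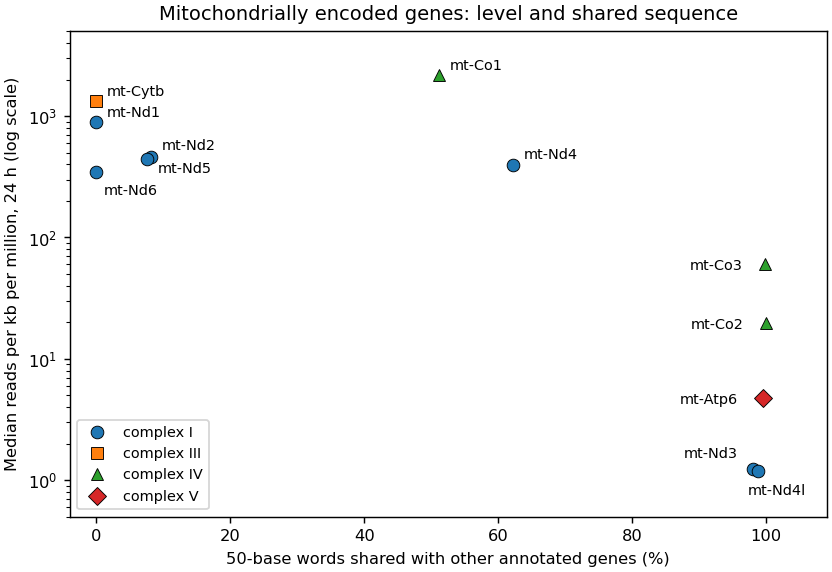
Level of each mitochondrial member at 24 h (RPKM, log axis) against the share of its 50-base stretches that also occur in another annotated gene (percent). The 5 members over 90% shared lie between 1.2 and 59.9, below the members that share less; mt-Atp8, with a median of 0, is not drawn.

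Reads were also counted on the copies themselves. Gm28661 had a median of 160.0 reads per library at 24 h, close to the 170.5 of mt-Co2, and at 4 h the medians were 242.0 and 246.0. Gm10925 had 97.5 against 38.0 of mt-Atp6, and Gm28437 had 267.5 against 575.0 of mt-Co3. By contrast Gm28439 had 24.0 against 6942.5 of mt-Nd4, a gene that also has sequence of its own. For reads that fit more than 1 place, the authors' treatment is not given in the sources used here. Levels of mt-Co2, mt-Co3, mt-Atp6, mt-Nd3 and mt-Nd4l are thus uncertain, and what decides them was not tested. In mt-Atp8 only 1 read was counted over all 14 libraries. It is 204 bases long (chrM 7766 to 7969), of which 43 overlap mt-Atp6, and it shares no stretch with an annotated gene. The space between the chromosome 1 copies of mt-Atp6 and mt-Co2, which holds no gene in the annotation, is 233 bases, beside 230 between the mitochondrial originals.

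Among nuclear members the highest levels belonged to the catalytic subunits of ATP synthase and to small complex IV subunits. At 24 h the F1 subunits Atp5a1 and Atp5b had median levels of 268.8 and 229.7 RPKM, and the lowest tested member of complex V was Atp5l at 4.2. In complex IV the levels ran from Cox6a1 at 247.2 to Cox4i2 at 0.9. In complex I they ran from Ndufa4 at 102.1 and Ndufa8 at 83.4 to Ndufb2 at 2.2. Complex III, from Uqcr11 (112.3) to Uqcrq (27.2), and complex II, from Sdhd (90.8) to Sdhc (30.9), had narrower ranges. Annotated exons include rarely used ones, so a gene with a long annotation is set low on this scale.

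**Figure D2:**
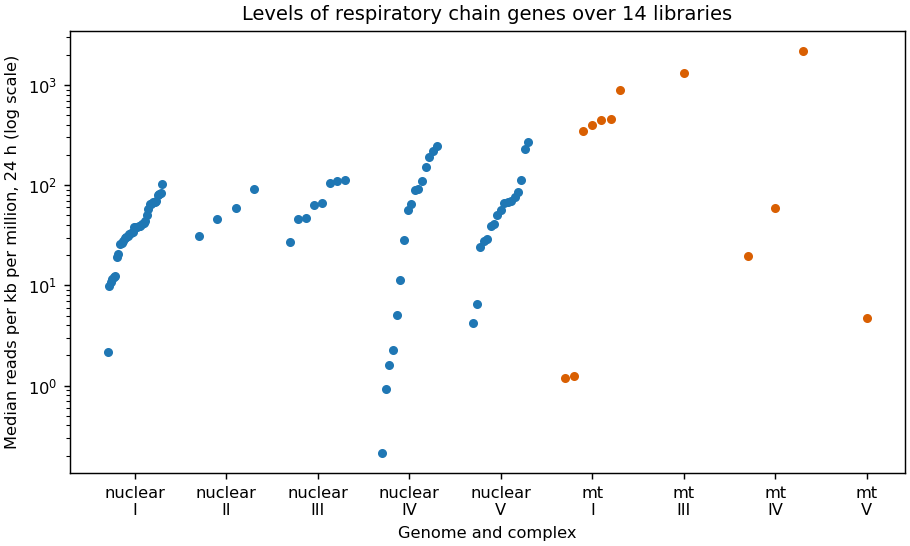
Median level over the 14 libraries at 24 h of each member with a median above 0 (RPKM, log axis), by complex, nuclear and mitochondrial members marked separately. Nuclear members reach 268.8 (Atp5a1), while mt-Co1 stands at 2173.0.

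Of the paired isoforms of complex IV, the ubiquitous form was the higher in each pair. These pairs differ by tissue, the second forms being known from lung, striated muscle or testis. Cox4i1 had 150.5 RPKM and Cox4i2 0.9, Cox6a1 247.2 and the muscle form Cox6a2 2.3, Cox6b1 217.3 and the testis form Cox6b2 5.1. Cox7a2 had 88.9 and the muscle form Cox7a1 1.6, and Cox7b 65.5 against 0.2 for Cox7b2. Cox8a had 190.5, while Cox8b had 2 reads over all 14 libraries and Cox8c had 0, which allows up to 3 counts in them together.

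In all, 93 members were in the 4 h table (81 nuclear and 12 mitochondrial) and 88 could be tested there, 78 nuclear and 10 mitochondrial. Absent from it were Cox6c2, Cox8b, Cox8c and mt-Atp8, and Cox7b2, Cox4i2, Cox7a1, mt-Nd3 and mt-Nd4l were under the minimum mean of 10 normalised reads. Of the 97 members at 24 h, 90 passed the expression filter, 80 nuclear and 10 mitochondrial. The others were Cox6c2 (7 reads in all), Cox7b2 (22), mt-Nd3 (74), mt-Nd4l (67) and the 3 named before.

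The share of a library's reads that fell on nuclear members at 4 h was 0.903%, 0.921% and 0.863% in WT and 0.877%, 0.882% and 0.881% in KO-labelled slices. The mitochondrial share was 1.08%, 1.11% and 1.14% in WT and 1.03%, 0.772% and 1.13% in KO, so that KO 2 stood alone at the low end and the other KO libraries were close to WT. At 24 h nuclear members took 0.851%, 0.890% and 0.812% in Het females and 0.900%, 0.812%, 0.822% and 0.811% in KO females, and these groups overlapped. In males the values were 0.859%, 0.847% and 0.873% in Het and 0.836%, 0.775%, 0.774% and 0.781% in KO, with each Het library above each KO library. The mitochondrial share was 0.769%, 0.822% and 0.823% in Het females and 0.983%, 0.703%, 0.818% and 0.769% in KO females. It was 0.671%, 0.783% and 0.797% in Het males and 0.761%, 0.742%, 0.806% and 0.930% in KO males, and the groups overlapped in both sexes.

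**Figure D3:**
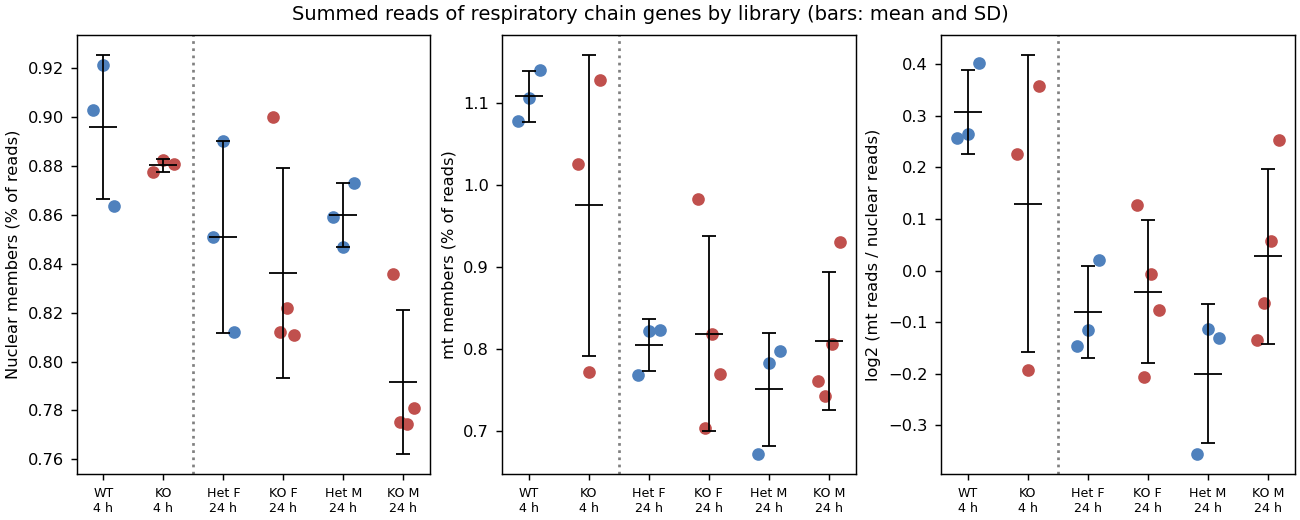
Reads on nuclear members and on mitochondrial members (percent of the library's reads) and the log2 ratio of mitochondrial to nuclear reads in each of the 20 libraries, by group, with bars for the group mean and SD. The 4 KO males lie at 0.774% to 0.836% for nuclear members, below the 3 Het males at 0.847% to 0.873%, while mitochondrial reads overlap between genotypes in each sex.

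Mitochondrial members varied together and, by median SD, more than the genes within their wide range of abundance. Their median SD between libraries of a group was 0.20 on the log2 scale at 4 h, beside 0.11 for genes in that range, and 0.17 beside 0.12 at 24 h. That range covered most of the members' mean levels and held 10826 of 15181 genes tested at 4 h and 11842 of 16013 at 24 h. Levels were thus not matched gene by gene. The median SDs of nuclear members were 0.08 beside 0.10 at 4 h and 0.12 beside 0.12 at 24 h, the genes in their range numbering 7320 and 9495. All 10 tested mitochondrial members were below their median over the table's libraries in KO 2 and in Het male 1, and all 10 were above it in KO female 1 and KO male 4. The log2 ratio of mitochondrial to nuclear reads was 0.31 ± 0.08 (SD, n = 3) in WT and 0.13 ± 0.29 (n = 3) in KO at 4 h. At 24 h it was -0.08 ± 0.09 (n = 3) in Het females and -0.04 ± 0.14 (n = 4) in KO females, and -0.20 ± 0.14 (n = 3) in Het males and 0.03 ± 0.17 (n = 4) in KO males. The genotype groups overlapped at 4 h and in females, and in males Het male 2 and Het male 3, at -0.11 and -0.13, were level with KO male 1 at -0.14.

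At 4 h no member passed the test between KO and WT (limma, Benjamini-Hochberg adjusted p under 0.05), while 7 of 15181 genes did, 0.0461%. Of the nuclear members 43 of 78 had a higher mean in KO, and their median log2 fold change was 0.01, beside 0.00 over all genes. Of the mitochondrial members 8 of 10 had a lower mean in KO, with a median of -0.14. Without KO 2 that median was 0.00 and 6 of 10 were higher. At an unadjusted p under 0.05, limma gave 1 member higher and 3 lower, and it gave 13.9% of all genes.

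The tested mitochondrial members whose groups did not overlap at 4 h were the genes of cytochrome b and of 2 complex IV subunits, all lower in KO. Normalised reads of mt-Cytb (chrM 14145 to 15288) were 36068, 36138 and 37286 in WT and 32526, 24641 and 35195 in KO, a log2 fold change of -0.26 ± 0.11 (SE; limma adjusted p = 0.300). For mt-Co1 (chrM 5328 to 6872) they were 55211, 58779 and 56856 against 52210, 39726 and 54829, a log2 fold change of -0.23 ± 0.11 (limma adjusted p = 0.349). For mt-Co3 they were 989, 944 and 936 against 899, 730 and 870, or -0.20 ± 0.09 (limma adjusted p = 0.312). In each of the 3 genes every KO library was below every WT library, as in 8.88% of all genes tested, and in each KO 2 was the lowest. An exact two-sided permutation test gave p = 0.1 for each, and 3 against 3 libraries cannot give less. The other members had log2 fold changes of -0.36 ± 0.25 for mt-Atp6, -0.16 ± 0.11 for mt-Nd4, -0.13 ± 0.13 for mt-Co2, -0.08 ± 0.12 for mt-Nd2 and -0.07 ± 0.11 for mt-Nd1, and the groups overlapped for all of them.

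The complex I subunits mt-Nd5 and mt-Nd6 had higher means in KO at 4 h. The 2 genes lie tail to tail on opposite strands, mt-Nd5 at chrM 11742 to 13565 and mt-Nd6 at chrM 13552 to 14070, and overlap by 14 bases. The strand setting is not given, so reads counted on mt-Nd6 may come from RNA of either strand. The log2 ratio of mt-Nd6 to mt-Nd5 reads varied little, at -2.38 to -2.33 in WT and -2.30 to -2.20 in KO at 4 h. At 24 h it was -2.29 to -2.05. Normalised reads of mt-Nd6 were 2088, 2379 and 2293 in WT and 2955, 2027 and 3080 in KO, a log2 fold change of 0.23 ± 0.12 (limma adjusted p = 0.431). KO 2 was the lowest of the 6 and the other 2 KO libraries the highest. The change of mt-Nd5 was 0.13 ± 0.13 (limma adjusted p = 0.692).

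Set against the other mitochondrial reads of its own library, KO 2 was like the other KO libraries. As a share of all mitochondrial member reads, mt-Nd6 took 1.51% to 1.66% in WT and 1.98% to 2.19% in KO, and mt-Nd5 took 7.64% to 8.61% in WT and 9.49% to 10.3% in KO. The share of mt-Cytb was 25.1% to 26.2% in WT and 24.0% to 24.1% in KO, and that of mt-Co1 39.3% to 40.9% against 37.3% to 38.8%. These 4 of the 8 abundant members had groups that did not overlap. Over all genes tested at 4 h, normalised reads were higher in KO without overlap for 10.1% and lower for 8.88%. Shares of mitochondrial reads are another measure, and no background of shares over all genes was made. The shares sum to 100%, so they are not independent of one another. At 24 h the shares did not keep apart: in females the groups overlapped for all 8 abundant members, and in males for all except mt-Cytb, at 19.4% to 19.5% in Het and 18.9% to 19.4% in KO. The make-up also stood apart between the tables, with mt-Cytb at 24.0% to 26.2% of mitochondrial reads in the 4 h libraries and 18.9% to 20.8% in the 24 h ones, which differ in time and control genotype and were not compared by a test.

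**Figure D4:**
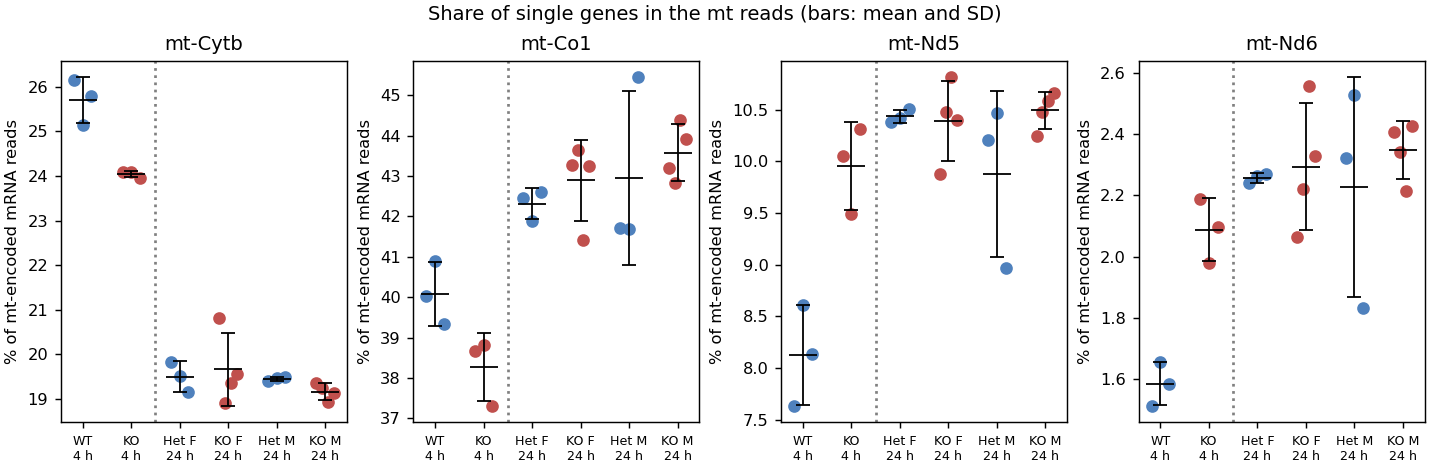
Share of all mitochondrial member reads (percent) taken by mt-Co1, mt-Cytb, mt-Nd5 and mt-Nd6 in each library, by group, with bars for the mean and SD. At 4 h the KO libraries lie above WT for mt-Nd5 and mt-Nd6 and below WT for mt-Co1 and mt-Cytb, and at 24 h the genotypes overlap except for mt-Cytb in males.

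Among the 78 nuclear members tested at 4 h, groups did not overlap for 1 that was higher in KO (1.28%) and for 2 that were lower (2.56%). Over all genes tested the shares were 10.1% and 8.88%, so both counts were below the background. The higher one was Ndufs5 (chromosome 4, 123712710 to 123718202, minus strand), an accessory subunit of the membrane arm of complex I. It had 396, 396 and 414 normalised reads in WT and 477, 451 and 470 in KO, a log2 fold change of 0.21 ± 0.09 (limma adjusted p = 0.289; exact permutation p = 0.1). Cox8a, a small complex IV subunit, had 2086, 1925 and 2031 in WT and 1868, 1808 and 1822 in KO, or -0.14 ± 0.07. Ndufb2, another accessory subunit of complex I, had 223, 230 and 220 against 212, 205 and 180, or -0.17 ± 0.11. Ndufv1, which carries the NADH-binding site, had a log2 fold change of 0.12 ± 0.07 (limma adjusted p = 0.479). By complex, nuclear medians lay between -0.02 (IV) and 0.06 (III).

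Marker genes of several cell types had lower or higher sums in KO at 4 h as well. No marker passed the test. Excitatory neuron markers were higher in KO for 8 of 8 genes, and their summed normalised reads were 12001 to 12906 in WT and 14582 to 16245 in KO. All 10 endothelial and pericyte markers were lower, at 5251 to 6024 against 4494 to 4694, as were all 10 astrocyte and all 9 meningeal markers and 7 of 8 tested choroid plexus and ependymal ones (sums 997 to 1223 against 655 to 865). The meningeal sums overlapped, at 3363 to 4363 in WT and 2474 to 3949 in KO. Sums of the general neuron markers were 98360 to 104250 in WT and 108407 to 113035 in KO. No marker of these lists was at 0 in a whole group. The part of cell make-up in the values of the members was not tested, and in bulk RNA fewer cells of a type cannot be told apart from less RNA per cell.

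At 24 h in males nearly all nuclear members had lower means in the KO-labelled libraries, by a small amount. The mean was lower for 75 of 80, with a median log2 fold change of -0.12, where 50.3% of all genes were lower with a median of 0.00. This held in each complex: 33 of 36 members of complex I were lower (median -0.14), 3 of 4 of complex II (-0.07), 8 of 8 of complex III (-0.11), 14 of 15 of complex IV (-0.12) and 17 of 17 of complex V (-0.10). No member passed the test (edgeR quasi-likelihood, Benjamini-Hochberg), and 0% of the 16013 genes did. At an unadjusted p under 0.05, edgeR gave 15 members lower and 1 higher, and 6.87% of all genes; DESeq2 also called 0 members. Mitochondrial members went the other way, 8 of 10 with a higher mean and a median of 0.13.

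Each of 16 of the 80 nuclear members was lower in every KO male than in every Het male, where 3.77% of all genes were. None was higher in this way, where 3.4% of all genes were, and no mitochondrial member was separated in either direction. The 16 were the complex I genes Ndufs5, Ndufs6, Ndufs7, Ndufv1, Ndufa12, Ndufa13, Ndufb8 and Ndufb9, the complex II membrane anchor Sdhc, the complex III hinge protein gene Uqcrh, Cox6b1 and Cox6c of complex IV, and Atp5f1, Atp5h, Atp5j2 and Atp5l of the stalk and membrane part of ATP synthase. Subunits of a complex are counted here as separate genes, but they come from the same 7 libraries and are not independent.

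KO male 1 was close to the Het males. In it 27 of the 80 nuclear members were below their own median over the 14 libraries, beside 21, 25 and 30 in the Het males and 71, 73 and 77 in the other KO males. Leaving out KO male 1, the median in males was -0.18 and 46 of 80 nuclear members (57.5%) were lower without overlap, beside 6.86% of all genes. KO male 1 was singled out by the values of these same members. The larger count without it follows from that choice and is no separate support. Leaving out any other male library gave 16 to 25 such members, beside 4.96% to 8.78% of all genes.

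Ndufs5 had the largest difference of the nuclear members in males. Its levels in CPM (reads relative to the TMM-scaled library size) were 41.0, 38.6 and 37.8 in Het males and 33.6, 29.5, 25.7 and 30.1 in KO males, a log2 fold change of -0.40 ± 0.10 (SE; edgeR adjusted p = 0.718; exact two-sided permutation p = 0.0571). At 4 h the same gene had a higher mean in KO. Atp5h (chromosome 11, 115415689 to 115419962, minus strand), a subunit of the stator stalk of ATP synthase, had 127, 115 and 122 CPM against 97.2, 96.6, 100 and 105, or -0.28 ± 0.07 (edgeR adjusted p = 0.718). Ndufb8 (chromosome 19, 44548572 to 44555440, minus strand), an accessory subunit whose protein is lost when complex I is not assembled, had 41.7, 41.8 and 40.7 against 35.03, 34.8, 33.8 and 30.8, or -0.30 ± 0.08 (edgeR adjusted p = 0.718). For Atp5h and Ndufb8 an exact permutation test gave p = 0.0286, and 3 against 4 libraries cannot give less, before any correction for the members compared. The log2 fold changes of Atp5j2 (-0.29 ± 0.09), Ndufb9 (-0.27 ± 0.08), Cox6c (-0.26 ± 0.09) and Sdhc (-0.18 ± 0.06) were of the same order.

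Within complex I the 7 nuclear core subunits, which carry the flavin and the iron-sulfur clusters, had a median log2 fold change of -0.07 in males and the other 29 members one of -0.14. The core genes also have longer annotations, with a median of 2178 exonic bases beside 1251. Over all nuclear members the median was -0.15 for the 40 genes of up to 1578 exonic bases and -0.10 for the 40 longer ones. These splits were made after the values were seen, and the part of length was not tested.

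Of the mitochondrial members in males, mt-Nd5 had 683, 820 and 690 CPM in Het and 785, 783, 864 and 978 in KO, a log2 fold change of 0.22 ± 0.10 (edgeR adjusted p = 0.719). The changes of mt-Nd6 and mt-Atp6 were 0.21 ± 0.12 and 0.52 ± 0.25. Reads of mt-Atp6 were few, at 2.36, 3.65 and 2.14 CPM against 3.21, 3.80, 4.64 and 4.21, and share their sequence with Gm10925. The groups overlapped for all 3 genes. Without Het male 1, which was low for all tested mitochondrial members, the mitochondrial median in males was 0.05 in place of 0.13.

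**Figure D5:**
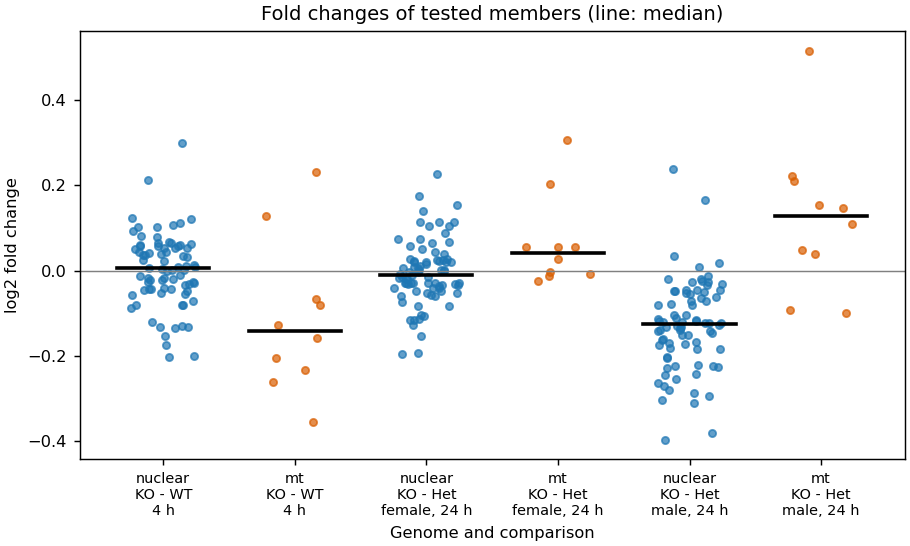
Log2 fold change of each tested member, nuclear and mitochondrial, in the comparisons of KO with WT at 4 h and of KO with Het at 24 h in females and in males, with the median of each set as a line. In males 75 of 80 nuclear members lie below 0 while 8 of 10 mitochondrial members lie above it, and in females both sets lie around 0.

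In females the nuclear members did not lean to 1 side to the same extent. The mean was lower in KO for 44 of 80, with a median of -0.01 (all genes 0.00), and higher for 6 of 10 mitochondrial members, with a median of 0.04. No member passed the test (edgeR; 0% of all genes), and none had an unadjusted p under 0.05, beside 4.10% of all genes. Groups overlapped for every member, where 2.3% of all genes were higher and 2.4% lower without overlap. The smallest p belonged to Sdhb, the iron-sulfur subunit of complex II, with 110, 112 and 106 CPM in Het and 108, 98.1, 102 and 95.9 in KO, or -0.12 ± 0.06 (edgeR adjusted p = 1.00). Next came Atp5d at 0.14 ± 0.08, Ndufv2 at -0.11 ± 0.07, Atp5l at 0.15 ± 0.10, Ndufa3 at -0.15 ± 0.10 and mt-Co3 at 0.20 ± 0.15.

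The female values depended on single libraries of both genotypes. Without Het female 2 the nuclear median was 0.04, with 56 of 80 higher in KO, and without Het female 3 it was -0.04, with 66 of 80 lower. In KO female 1, one of the libraries with Ttr reads, 5 of 80 nuclear members were below their 14-library median, beside 50, 38 and 61 in the other KO females and 20, 5 and 57 in the Het females. Without KO female 1 the nuclear median in females was -0.06, with 64 of 80 lower, and the mitochondrial median was -0.06. Without all 3 libraries that held Ttr reads the nuclear medians were -0.07 in females (68 of 80 lower) and -0.11 in males (73 of 80 lower). Without KO female 2, whose reads go against its sex label, the nuclear median in females was 0.01 and the mitochondrial one 0.10, with all 10 members higher.

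The difference between the male and the female genotype contrasts was tested in the same fit. No member passed (edgeR; 0% of all genes). The nuclear median of the difference was -0.14 with 69 of 80 negative, and 9 members had an unadjusted p under 0.05, all negative, beside 3.86% of all genes. The smallest p belonged to Atp5h at -0.26 ± 0.09, Ndufs5 at -0.37 ± 0.14 and Atp5j2 at -0.32 ± 0.12 (edgeR adjusted p = 0.977 for each). In the positive direction they were Ndufb2 at 0.36 ± 0.27, mt-Nd5 at 0.20 ± 0.14 and Ndufs3 at 0.09 ± 0.08. Without KO female 1 the nuclear median of the difference was -0.06, without the 3 libraries with Ttr reads -0.03 (49 of 80 negative), and without KO female 2 -0.17. A difference between the sexes in the response of these genes was thus not shown.

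Averaged over the sexes, KO minus Het gave no member past the threshold (edgeR; 0% of all genes), with 74 of 80 nuclear members lower (median -0.06) and 9 of 10 mitochondrial members higher (median 0.08). An unadjusted p under 0.05 was reached by 9 members lower and 1 higher, beside 6.62% of all genes. Ndufs5 (-0.21 ± 0.07), Ndufb8 (-0.17 ± 0.05) and Atp5h (-0.15 ± 0.05) came first among the lower and mt-Atp6 (0.41 ± 0.18), mt-Nd5 (0.12 ± 0.07) and mt-Nd6 (0.13 ± 0.08) among the higher, with edgeR adjusted p between 0.738 and 0.818. Averaging gives equal weight to both sexes. The mitochondrial median was 0.02 without KO female 1, with 6 of 10 higher, 0.04 without Het male 1, with 7 of 10 higher, and 0.05 without KO male 4, with 7 of 10 higher. Without the 3 libraries with Ttr reads it was 0.00, with 5 of 10 higher, and the nuclear median was -0.09, with 76 of 80 lower.

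Between the sexes at 24 h no member passed the test, and 3 of 16013 genes did (edgeR), 0.0187%. Nuclear members had a lower mean in males for 71 of 80, with a median of -0.05, and mitochondrial members for 9 of 10, with a median of -0.09. Atp5o, the oligomycin-sensitivity subunit of ATP synthase, was the only member with an unadjusted p under 0.05, at -0.14 ± 0.05 (edgeR adjusted p = 0.998). The positive side held small values, such as Uqcrfs1 and Ndufa12 at 0.03 each and Uqcrb at 0.02. Without the 3 libraries with Ttr reads the medians were -0.02 and 0.00. The female side held KO female 2, whose reads go against its sex label. Without KO female 2 the medians were -0.06, with 71 of 80 nuclear members lower in males, and -0.12, with 10 of 10 mitochondrial members lower.

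Means of cell type markers also differed between the male groups, though none passed the test. In KO males 9 of 10 astrocyte markers had lower means (summed CPM 3213 to 5599 in Het and 3579 to 3937 in KO), as did 8 of 9 oligodendrocyte lineage and 8 of 9 microglial markers, while 8 of 9 meningeal markers were higher (422 to 499 against 518 to 668) and 7 of 8 excitatory neuron markers were higher. The general neuron markers overlapped, at 6252 to 6898 in Het and 6299 to 6879 in KO. Library totals were 9925705 to 17559192 in Het males and 8482933 to 12403987 in KO males. The part of cell make-up or depth in the male values was not tested.

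Other mitochondrial genes were read through lists of the pathway, and no gene of them passed the test in any comparison. In males the genes of the mitochondrial ribosome, which translates the mitochondrial members, had lower means for 64 of 77, with a median of -0.09. So had 19 of 25 genes of the citric acid cycle and pyruvate entry (-0.04), 18 of 24 of the mobile carriers and nucleotide exchange (-0.07), 13 of 18 of complex I assembly (-0.05), 20 of 34 of complex II to V assembly (-0.03), and 16 of 28 of mitochondrial DNA maintenance and transcription (-0.03). Over all genes the median in males was -0.0013. The lists of complex II to V assembly and of mitochondrial DNA maintenance lay near the share of all genes that were lower, given above. The nuclear regulators of mitochondrial biogenesis were higher for 13 of 20 (0.06). Both mitochondrial ribosomal RNAs had lower means, with a median of -0.18, whereas most mitochondrial mRNAs had higher ones. The change of mt-Rnr1 was -0.19 ± 0.17 (SE; edgeR adjusted p = 0.844), about as large as its SE. In females mt-Rnr2 was at 0.21 ± 0.19. A difference between ribosomal RNAs and mRNAs was not tested.

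In males the genes named, each with the smallest p of its list in that direction, were Uqcc2, a complex III assembly factor, at -0.39 ± 0.12, Coq9, needed for coenzyme Q synthesis, at -0.34 ± 0.09, Mrps33 of the small mitochondrial ribosomal subunit at -0.36 ± 0.12, Nubpl, which brings iron-sulfur clusters to complex I, at -0.28 ± 0.12, and Suclg1 of the citric acid cycle at -0.15 ± 0.07. Nrip1, a corepressor of oxidative genes, was at 0.30 ± 0.10 (edgeR adjusted p = 0.718 for each). At 4 h the ribosomal list leaned the other way, with 48 of 77 higher and a median of 0.02, and the complex II to V assembly list had 24 of 34 higher (0.06). The gene named from the citric acid cycle and pyruvate list at 4 h was Pdk4, a kinase that shuts off pyruvate entry, at -0.55 ± 0.11 (limma adjusted p = 0.0935). The copper chaperone gene Cox17 was at -0.94 ± 0.31 and the muscle-enriched regulator Perm1 at -0.58 ± 0.19 (limma adjusted p = 0.218 for both). Nrip1 was at 0.31 ± 0.10 at 4 h as well, but the tables have different controls. In females the regulator Ppargc1b had 0.63 ± 0.23 and Pdk1 -0.22 ± 0.08 (edgeR adjusted p = 1.00 for both).

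Since most nuclear members had lower means together in males, their promoters were read. RefSeq promoters of GRCm38.p6, from 250 bases before to 50 after the start, matched 66 of the 84 nuclear members by symbol. The palindromic motif of NRF1, a nuclear activator of respiratory genes (GCGCA, any base, GCGC), was in 17 of them (25.8%), beside 5.19% of 27025 genes. The ETS-type motif CCGGAAG, which GABP binds, was in 16 (24.2%) beside 9.93%, and the YY1-type motif AAGATGGC in 9 (13.6%) beside 3.19%. The GC box GGGCGG was in 26 (39.4%) beside 38.2%. Both strands were searched, and a match is no evidence of binding. Parts of 3 promoters are shown, the members with the lowest p in males that had the NRF1 motif and the highest complex IV member, with NRF1 and ETS-type motifs in capitals.
Ndufs5, chr4:123718187-123718306, minus strand: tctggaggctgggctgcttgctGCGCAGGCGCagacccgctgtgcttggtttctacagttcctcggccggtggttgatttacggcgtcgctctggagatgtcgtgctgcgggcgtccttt
Atp5h, chr11:115419920-115420069, minus strand: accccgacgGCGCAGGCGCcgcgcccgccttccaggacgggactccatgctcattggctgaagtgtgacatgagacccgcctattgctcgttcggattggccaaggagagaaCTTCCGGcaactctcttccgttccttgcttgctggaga
Cox6a1, chr5:115348959-115349128, minus strand: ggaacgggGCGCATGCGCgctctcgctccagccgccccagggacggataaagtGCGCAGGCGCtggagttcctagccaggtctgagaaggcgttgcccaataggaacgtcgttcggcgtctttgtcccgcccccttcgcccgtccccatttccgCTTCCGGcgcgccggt
In males the median log2 fold change was -0.13 for the 17 members with the NRF1 motif and -0.12 for the 47 tested members without it. For the ETS-type motif the medians were -0.16 (16 members) and -0.12 (48), for the YY1-type motif -0.18 (9) and -0.12 (55), and for the GC box -0.13 (25) and -0.12 (39). These differences were not tested.

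Set side by side, KO-labelled slices had a summed 10228 CPM (here from raw totals, without TMM factors) on the 8 abundant mitochondrial members at 4 h (median of 3 libraries, 7700 to 11262) and 7855 at 24 h (median of 8, 7019 to 9802). Nuclear members found in both tables had 8807 (8773 to 8824) and 8116 (7744 to 9000). For single genes, mt-Cytb had 2344 ± 437 CPM at 4 h and 1584 ± 227 at 24 h (SD, n = 3 and n = 8), whereas mt-Co1 had 3725 ± 643 and 3521 ± 429. Atp5b had 1178 ± 19.3 and 961 ± 30.6, and Ndufb8 51.8 ± 3.00 and 35.9 ± 2.83. Only the KO label is shared by both times, and the tables were prepared separately, so no test was made.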

How the data were processed

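Smart-Seq v4 libraries were made from total RNA, per the labels' protocols. GRCm38 (mm10), HTSeq, TopHat2 and DESeq2 1.38.3 are named in the submitters' processing notes. Strand setting, annotation release and treatment of multiply mapped reads: not given in the sources used here. At 24 h the deposited values are raw counts of reads. At 4 h they are a deposited signal, namely counts divided by 1 size factor per library; 100% of the values came out as whole reads within 0.05. Percentages of reads, CPM and RPKM were computed from the reads and GENCODE M21 exon lengths.

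At 4 h limma 3.58.1 (trend) was fitted to log2(value + 1) of genes with a mean of at least 10, which understates changes of low genes; the design had provided for this. At 24 h edgeR 4.0.16 (R 4.3.3, TMM, default filter, quasi-likelihood F test) was fitted with 1 mean per genotype and sex over 14 libraries. The SE given at 24 h is derived from that test, as the absolute log2 fold change divided by the square root of F. All tests were two-sided over the whole table, with Benjamini-Hochberg adjustment and a threshold of 0.05. DESeq2 1.42.0, other scalings and filters, the replicate block and omission of each library were alternatives. Both fits were tested on simulated data. Members named were those with the 3 smallest p per direction and comparison, all mitochondrial members, the highest and lowest of each complex, isoform pairs and filtered members; a further 4 with the largest separated differences at 4 h, and the listed pathway gene with the smallest p per list and direction. The members and lists were chosen with earlier results of these data known.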

Additional observations from a re-analysis of the deposited data

Results flagged for a closer look

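In groups of 4 libraries, the highest or lowest library was compared with the gap to its nearest neighbour relative to the range. Of 78 such sets of values, 10 had a library standing apart. Chance gives about 1 in 20 for a single set, but the sets share libraries and genes and are not independent. The count can therefore not be read as an excess over that rate. KO female 1 stood apart in 6 of the 10. Nuclear members took 0.900% of its reads, beside 0.812%, 0.822% and 0.811% in the other KO females, and the nuclear complex III members 0.0874%. Atp5j2 was at 115 CPM, Ndufv2 at 103 CPM, mt-Atp6 at 5.32 CPM and mt-Co2 at 20.5 CPM, each above the other KO females. This library also held 19661 reads of the choroid plexus gene Ttr, and so did KO female 3 with 48186, which did not stand apart in these values. KO male 1 stood apart with 0.836% of reads on nuclear members and 0.136% on nuclear complex IV members, above the other KO males. KO male 4 was the lowest KO male for Sdhb at 93.7 CPM and the highest for mt-Nd1 at 944 CPM. What sets these libraries apart was not tested.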

How the results depend on the processing

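Values that answer a comparison were computed again under the alternatives. A value was counted as kept if direction and side of the threshold held, or it moved by less than the spread between libraries. Under alternatives chosen after seeing the data 20 were kept and 1 moved, and under the others 375 and 4. Some alternatives could hardly move a value, so the counts do not measure robustness. With any single female library left out, 75 of 80 nuclear members stayed lower in males. By this rule the mitochondrial median in males, 0.05 without Het male 1 in place of 0.13, also counts as kept. The exceptions follow, with those of single members, and their cause was not tested unless stated. At 4 h the nuclear median was -0.034 when libraries were scaled to a common total without mitochondrial genes (all genes then at -0.04), in place of 0.01, and -0.033 to 0.030 when each library was left out. The number of members called at 4 h was 0 to 1 on leaving out each library; the 1 was mt-Nd6 without KO 2, at 0.42 (limma adjusted p = 0.0157). In males at 24 h 3 members were called without the filter on low counts, Ndufs5 at -0.40, Atp5h and Atp5j2 (edgeR adjusted p = 0.0200 for Ndufs5 and 0.0455 for Atp5h). The share of all genes called under these alternatives is not given here, so no background stands beside the called members. The mitochondrial median in females was -0.13 without the 3 libraries with Ttr reads, an alternative chosen after seeing the data, as were the omission of WT 1 with KO 1 and the counts of separated members with libraries left out. Single members turned their direction when a library was left out, with ranges at 4 h of -0.22 to 0.0040 for mt-Co2, -0.19 to 0.077 for mt-Nd1, -0.23 to 0.088 for mt-Nd2, -0.28 to 0.0036 for mt-Nd4 and -0.0063 to 0.32 for mt-Nd5. Between the sexes the ranges were -0.0038 to 0.085 for Ndufa12 and -0.010 to 0.066 for Uqcrb. With a replicate block, 0 members were called at 4 h and 0 at 24 h; the nuclear medians were 0.01 at 4 h and, at 24 h, -0.04 averaged, 0.01 in females and -0.11 in males. Replicate numbers did not pair the 4 h samples by the criterion used (correlations 0.156, 0.0999 and 0.145), although each sample correlated best with its own number. Males minus females could not be fitted with a replicate block within sex.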
